A study of Mus musculus with 9 samples.

Results

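A set of 10 genes of Toll-like receptor signalling and of the NF-kappaB response were followed in the liver: *Tlr2*, *Tlr4*, *Cd14*, *Myd88*, *Il1b*, *Il1rn*, *Tnf*, *Nfkbia*, *Nfkb1* and *Nlrp3*. A gene was taken from the array where a probe set carried its symbol and no other. This held for 9 of the 10 genes, each with 1 probe set, out of 28815 probe sets in all, of which 21780 carried 1 symbol. *Nfkb1*, which encodes the p50 subunit of NF-kappaB, had no such probe set in the annotation used and was not analysed here.

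Liver RNA came from 9 female mice aged 15 to 16 months on a C57BL/6J background, with 1 mouse per Affymetrix Mouse Gene 1.0 ST array and 3 mice per group. WTAL mice were wild-type and ate ad libitum. WTCR mice were wild-type and went through short-term calorie restriction (CR), with food lowered in steps over several weeks. *Dgat1*-/-AL mice lacked the triglyceride synthesis enzyme DGAT1 in the whole body and ate ad libitum, and all mice were kept in a barrier facility. The labels name the same make of chow for every group, while the methods speak of a CR diet for WTCR. Values are log2 signals after RMA, the normalization used by the authors, and are given for replicates 1, 2 and 3 in that order.

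The labels were first checked with *Dgat1* itself. Its log2 signal was 6.14, 5.84 and 5.39 in *Dgat1*-/-AL and 8.56 to 8.89 in WTCR, but 7.86, 5.67 and 8.04 in WTAL. The array labelled WTAL replicate 2 therefore goes against its label, and counts against WTAL that differ without it are given both ways, as are the values nearest to the rule. *Dgat1*-/-AL replicate 1 stood apart as well. It held the single highest value of 15.2% and the single lowest value of 17.4% of all probe sets, against 7.53% to 13.2% and 6.14% to 12.2% in the other 8 arrays. Several results that lean on it, but not all, are also given without it. Hepatocyte markers were high in every array (mean log2 signal 13.68 to 13.89 over 5 measured genes such as albumin), as in liver.

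Toll-like receptors recognise microbial products. TLR4 binds lipopolysaccharide with the help of CD14 and MD-2, TLR2 binds bacterial lipoproteins, and both pass the signal through the adaptor MyD88 to kinases that release NF-kappaB from its inhibitors, the IkappaB proteins. NF-kappaB then enters the nucleus and drives genes such as *Tnf*, *Il1b* and *Nfkbia*, the last of which encodes IkappaBalpha and closes a negative feedback loop. NLRP3 builds the inflammasome, in which caspase-1 cuts pro-IL-1beta into its active form, and IL-1 receptor antagonist, the product of *Il1rn*, blocks the receptor. In liver these genes are best known from Kupffer cells, the resident macrophages that meet gut-derived bacterial products, although hepatocytes also express several of them.

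Sequence upstream of the start site was read for the members to see which carry a kappaB site, the DNA element that NF-kappaB dimers bind. RefSeq promoters (GRCm38.p6, 250 bases before to 50 after each start) were found for 7 of the 10 genes, *Tlr2*, *Myd88*, *Il1b*, *Il1rn*, *Tnf*, *Nfkbia* and *Nlrp3*. The 250 bases before the start are printed for the 3 genes that have a single annotated start and came under an unadjusted p of 0.05 in any comparison, 5' to 3' on the strand of the gene, with matches to the kappaB consensus in capitals. They lie at chr3:83841609-83841858 (*Tlr2*, minus strand), chr12:55492648-55492897 (*Nfkbia*, minus strand) and chr2:129371140-129371389 (*Il1b*, minus strand).
Tlr2: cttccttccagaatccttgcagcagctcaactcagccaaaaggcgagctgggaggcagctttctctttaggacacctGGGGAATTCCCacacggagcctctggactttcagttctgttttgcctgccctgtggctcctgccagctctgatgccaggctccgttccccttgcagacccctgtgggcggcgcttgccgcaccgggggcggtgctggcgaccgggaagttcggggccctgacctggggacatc
Nfkbia: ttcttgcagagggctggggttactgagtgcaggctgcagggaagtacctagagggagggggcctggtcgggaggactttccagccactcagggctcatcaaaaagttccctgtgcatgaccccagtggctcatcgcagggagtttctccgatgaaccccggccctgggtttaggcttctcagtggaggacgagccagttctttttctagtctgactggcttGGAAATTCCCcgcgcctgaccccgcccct
Il1b: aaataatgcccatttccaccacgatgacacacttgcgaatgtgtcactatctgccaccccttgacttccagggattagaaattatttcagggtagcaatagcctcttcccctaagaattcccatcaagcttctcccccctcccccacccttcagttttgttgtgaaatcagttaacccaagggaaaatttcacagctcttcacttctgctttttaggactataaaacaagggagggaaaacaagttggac

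In *Tlr2* the capitals hold overlapping matches at -173 and -172 from the start site, and a further match at -8 crosses the start site and runs past the printed stretch. In *Nfkbia* the match lies at -29 on the other strand. *Il1b* shows none in these bases. Searched on both strands, the consensus was found in 3 of 7 member genes (42.9%), the other being *Nlrp3* at 1 of its start sites, and in 1388 of 27025 genes with a promoter (5.14%). In the wider list of pathway genes described below it was found in 18 of 78 genes (23.1%), and in 0 of the 12 genes with a promoter that were called between WTCR and WTAL. A match is a run of letters and was not tested for binding.

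Most members were measured at low to moderate signal. The background was set from 1222 probe sets of olfactory, vomeronasal and trace amine receptors, genes not expected in liver, whose 95th percentile of mean signal was 5.21, a level under which 37.6% of all probe sets fell. *Nlrp3* alone lay near background, with a mean over 9 arrays of 4.47. *Tnf* was just above the limit at 5.28, and 2 of its 9 values lay under it. *Tlr4* (5.52), *Cd14* (5.74) and *Il1b* (5.84) were above the 95th percentile but below the 99th (6.16) of the background probe sets. *Il1rn* (6.20), *Tlr2* (6.49), *Myd88* (7.24) and *Nfkbia* (8.36) were above both. These means place each probe set against background and are not compared between genes, since probes differ in their brightness.

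*Tlr2* was 6.42, 6.67 and 6.75 in WTAL, 6.33, 6.19 and 6.47 in WTCR, and 6.63, 6.47 and 6.47 in *Dgat1*-/-AL. Its group means ran from WTAL (6.61) through *Dgat1*-/-AL (6.52) to WTCR (6.33), and WTCR replicate 3 overlapped the lowest WTAL array. *Tlr4*, the lipopolysaccharide receptor, was 5.86, 5.47 and 5.72 in WTAL, 5.12, 5.24 and 5.70 in WTCR, and 5.07, 5.88 and 5.59 in *Dgat1*-/-AL. All 3 groups overlapped, and the SD within *Dgat1*-/-AL (0.41) was wider than any distance between group means.

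The co-receptor gene *Cd14* was 5.68, 6.10 and 6.03 in WTAL, 5.49, 5.91 and 5.83 in WTCR, and 5.79, 5.21 and 5.61 in *Dgat1*-/-AL. Its order was WTAL, WTCR, *Dgat1*-/-AL, and replicate 1 of WTAL was lower than 1 *Dgat1*-/-AL array and 2 WTCR arrays. *Myd88* was 6.60, 7.43 and 7.57 in WTAL, 7.37, 6.76 and 7.07 in WTCR, and 8.04, 7.15 and 7.14 in *Dgat1*-/-AL. This adaptor gene was the most variable member, with SDs of 0.52 in WTAL, 0.31 in WTCR and 0.52 in *Dgat1*-/-AL. It was highest of all in *Dgat1*-/-AL replicate 1 and lowest of all in WTAL replicate 1.

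*Nfkbia*, the NF-kappaB inhibitor and target gene, was 8.08, 8.20 and 8.38 in WTAL, 8.97, 8.39 and 8.38 in WTCR, and 8.38, 8.19 and 8.28 in *Dgat1*-/-AL. It was the only one of the 9 members with its highest group mean in WTCR. WTCR replicate 1 stood well above the other 8 arrays, while WTCR replicates 2 and 3 lay beside the highest WTAL array.

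Among the cytokine genes, *Il1b* was 5.77, 5.70 and 6.06 in WTAL, 5.75, 5.72 and 5.58 in WTCR, and 6.26, 5.78 and 5.96 in *Dgat1*-/-AL. All WTCR arrays were lower than all *Dgat1*-/-AL arrays, and WTAL lay across both. Its antagonist *Il1rn* was 6.19 in every WTAL array, 6.02, 5.97 and 6.19 in WTCR, and 6.46, 6.37 and 6.19 in *Dgat1*-/-AL. The same value, 6.19, was thus given to 5 of the 9 arrays. Values shared by 5 or more arrays occurred in 9.46% of all probe sets of the table, and the SD of 0 of *Il1rn* in WTAL came from such a value. *Tnf* was 5.26, 5.50 and 5.27 in WTAL, 5.16, 5.27 and 5.36 in WTCR, and 5.20, 5.24 and 5.27 in *Dgat1*-/-AL, all close to the background limit. *Nlrp3* was 4.64, 4.47 and 4.47 in WTAL, 4.48, 4.43 and 4.21 in WTCR, and 4.47, 4.49 and 4.58 in *Dgat1*-/-AL. No array brought this inflammasome gene to the background limit.

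**Figure D1:**
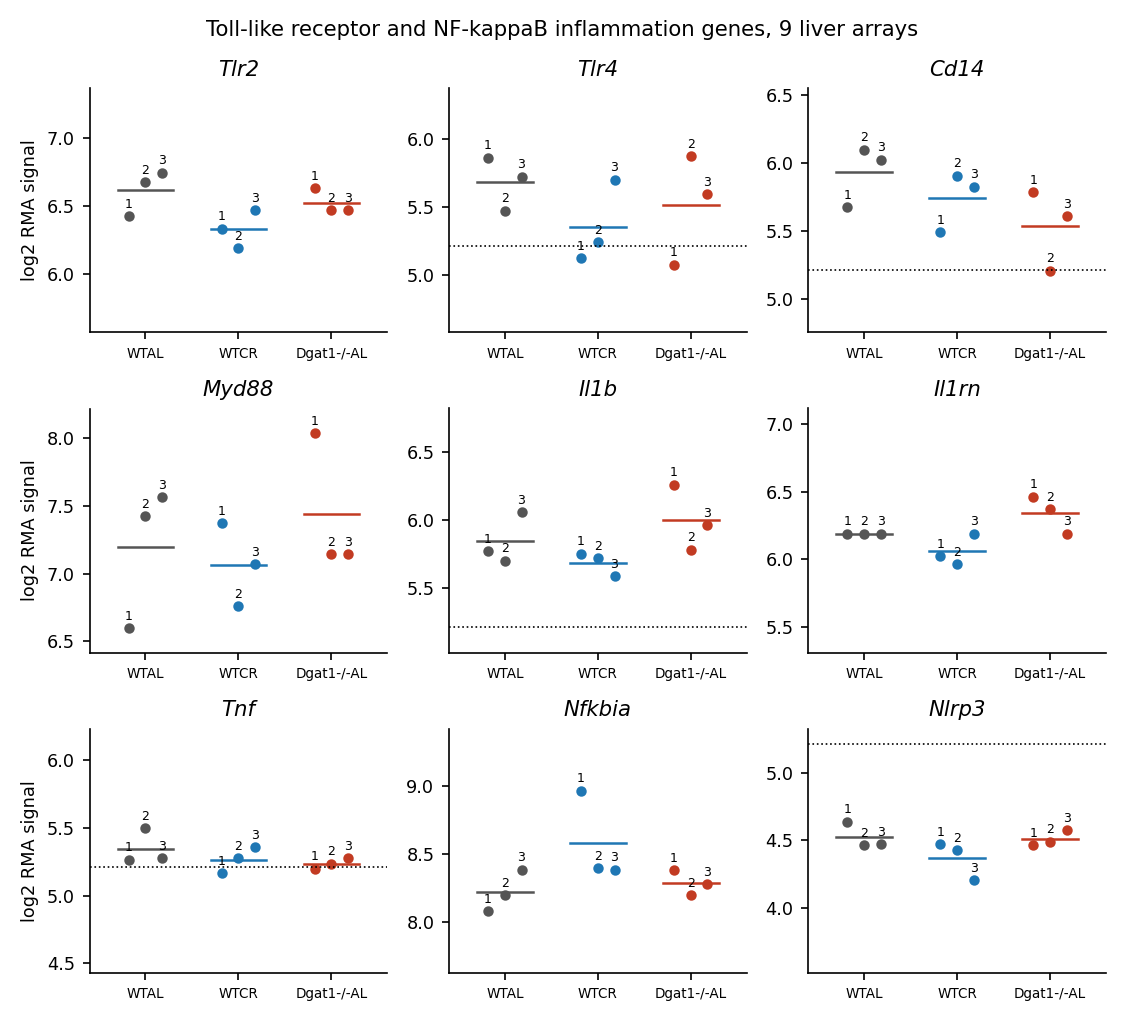
Log2 RMA signal (y axis) of each of the 9 measured genes in each array (x axis, grouped), with replicate numbers over the points, the group mean as a line and, where it falls in the range drawn, the background limit of 5.21 as a dotted line. The groups overlap in nearly every panel, *Nlrp3* lies under the limit throughout and *Nfkbia* is highest in WTCR replicate 1 at 8.97.

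The first comparison asked which of these genes responded to CR. None of the 9 passed the study's rule of a fold over 1.3 with an unadjusted p under 0.05 in WTCR compared with WTAL, either higher (0 of 9, against 4.25% of all probe sets) or lower (0 of 9, against 3.81%). The log2 fold change was below 0 for 8 of 9 genes, with a median of -0.16 against 0.00 over all probe sets. *Tlr2* gave the lowest p, at a log2 fold change of -0.29 (SE 0.11, 3 mice in each group, limma unadjusted p = 0.0254, adjusted p = 0.234), a fold of 1.22. *Nfkbia* gave 0.36 ± 0.16 (limma unadjusted p = 0.0483, adjusted p = 0.327), a fold of 1.28, and the 95% interval of its log2 fold change was 0.003 to 0.72. An unadjusted p under 0.05 was thus reached by 2 of 9 members, against 15.1% of all probe sets, and the groups were apart for 0 of 9, against 19.6%.

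The remaining 7 genes had log2 fold changes from -0.33 ± 0.22 (*Tlr4*) to -0.08 ± 0.08 (*Tnf*), with limma adjusted p from 0.485 to 0.921. The 95% intervals ran from -0.83 to 0.17 for *Tlr4*, from -0.85 to 0.59 for *Myd88*, from -0.47 to 0.15 for *Il1b* and from -0.27 to 0.11 for *Tnf*. Without the array labelled WTAL replicate 2 no member was called either, and *Tlr2* (-0.26) and *Nfkbia* (0.35) moved little. *Tlr2* passed the rule without WTAL replicate 1 (-0.38), and *Nfkbia* passed it without WTAL replicate 3 (0.44), WTCR replicate 2 (0.46) or WTCR replicate 3 (0.46), but came down to 0.17 without WTCR replicate 1.

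The second comparison asked the same of the loss of DGAT1. Again no member passed the rule in *Dgat1*-/-AL compared with WTAL (0 of 9 higher, against 0.465% of all probe sets, and 0 of 9 lower, against 0.760%), and the directions were mixed, with 5 of 9 below 0 and a median of -0.02. *Cd14* came nearest, at -0.40 ± 0.18 (SE, n = 3 mice per group, limma unadjusted p = 0.0513, adjusted p = 0.972), a fold of 1.32, and the 95% interval of its log2 fold change was -0.81 to 0.003. *Myd88* (0.25 ± 0.32), *Il1b* (0.16 ± 0.14) and *Il1rn* (0.15 ± 0.09) had values above 0, and *Tlr2* (-0.10 ± 0.11), *Tlr4* (-0.17 ± 0.22) and *Tnf* (-0.11 ± 0.08) below, all with limma adjusted p of 0.972. *Nfkbia* (0.06 ± 0.16) and *Nlrp3* (-0.02 ± 0.09) were nearest to 0. An unadjusted p under 0.05 was reached by 0 of 9 members, against 4.57% of all probe sets, and the groups were apart for 0 of 9, against 7.02%.

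*Cd14* passed the rule as lower without *Dgat1*-/-AL replicate 1 (-0.53), WTAL replicate 1 (-0.53) or WTCR replicate 1 (-0.40, where only the shared spread changed), and not without the array labelled WTAL replicate 2 (-0.32). Without *Dgat1*-/-AL replicate 1 the value of *Myd88* went from 0.25 to -0.05, that of *Tlr4* from -0.17 to 0.05 and that of *Il1b* from 0.16 to 0.03.

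Compared directly, WTCR and *Dgat1*-/-AL again gave no member past the rule (0 of 9 higher, against 4.66% of all probe sets, and 0 of 9 lower, against 3.93%). The nearest values were in the IL-1 genes. *Il1rn* was at -0.28 ± 0.09 (SE, n = 3 mice per group, limma unadjusted p = 0.0109, adjusted p = 0.143), a fold of 1.22, and *Il1b* at -0.32 ± 0.14 (limma unadjusted p = 0.0449, adjusted p = 0.300), a fold of 1.25. The SE of *Il1rn* comes from 1 spread over all groups, which takes in the SD of 0 in WTAL. The shared value behind it, 6.19, was also that of WTCR replicate 3 and *Dgat1*-/-AL replicate 3. *Nfkbia* was at 0.30 ± 0.16 (limma adjusted p = 0.425) with all WTCR arrays above all *Dgat1*-/-AL arrays. The gap was narrow, at 8.383 in WTCR replicate 3 against 8.377 in *Dgat1*-/-AL replicate 1. Without WTCR replicate 1 the *Nfkbia* difference was 0.105. An unadjusted p under 0.05 was reached by 2 of 9 members, against 15.8% of all probe sets, and the groups were apart for 2 of 9, *Il1b* and *Nfkbia*, against 16.1%. *Myd88* had the largest difference (-0.38 ± 0.32) and the widest interval (-1.09 to 0.35), and without *Dgat1*-/-AL replicate 1 it was -0.08. Without that array *Il1b* went to -0.19 and *Il1rn* to -0.22. *Il1b* passed the rule as lower without *Dgat1*-/-AL replicate 2 (-0.43).

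**Figure D2:**
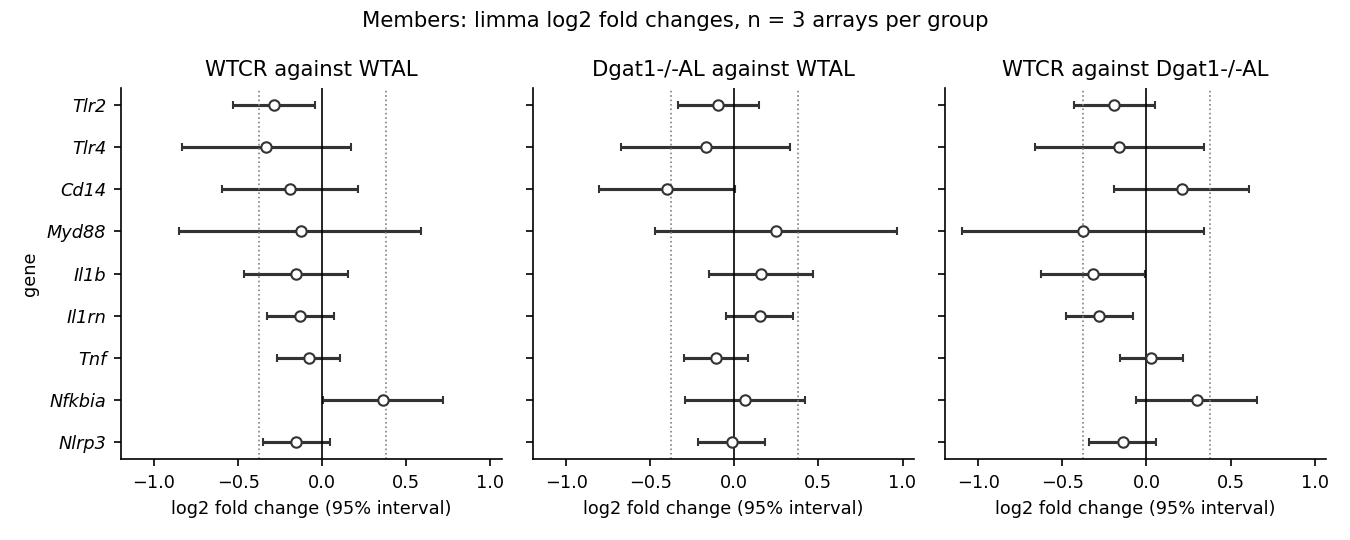
Log2 fold change from limma (x axis) with its 95% interval for each measured gene (y axis) in the 3 comparisons, n = 3 mice per group. Dotted lines mark a fold of 1.3 either way and open circles mark genes that did not pass the rule, which here is all 9 in each comparison.

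Around these genes a list of 96 pathway genes was drawn up by role, from receptors to target genes, and 86 of them were measured, 16 of these near background. In WTCR compared with WTAL, 2 pathway genes were higher (2.33%, against 4.25% of all probe sets) and 12 lower (14%, against 3.81%), with a median log2 fold change of -0.08. All 14 lie outside the 9 members. With only probe sets above the background limit kept, the counts were 2 higher and 11 lower, against 6.44% and 5.52% of those probe sets. In *Dgat1*-/-AL compared with WTAL, 0 were higher (against 0.465% of all probe sets) and 1 was lower (1.16%, against 0.760%), with a median of 0.01. In the direct comparison 3 were higher (3.49%, against 4.66%) and 8 lower (9.3%, against 3.93%) in WTCR, with a median of -0.14, and without *Dgat1*-/-AL replicate 1 they were 5 higher and 10 lower (against 5.76% and 4.59%). Without the array labelled WTAL replicate 2, the counts with CR were 2 higher and 13 lower (against 4.03% and 4.13% of all probe sets). Of the 14 calls 13 were kept, with *Tirap* the exception. The counts in *Dgat1*-/-AL were then 0 higher and 3 lower (against 0.524% and 1.28%), the added genes being *Casp1* (-0.50) and *Birc3* (-0.46). The genes added with CR were *Tlr1* (-0.39) and *Cd180* (-0.41). The comparisons against WTAL share its arrays, so their values stand side by side here and are not set against each other.

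Of 10 measured Toll-like receptor genes, 3 of them near background, 9 had a value below 0 with CR. The median was -0.29, against 0.00 over all probe sets. Over all arrays only *Tlr8*, an endosomal member of the family, fell past the rule (-0.43 ± 0.13, limma adjusted p = 0.151), 1 of 10 against 3.81% of all probe sets. It was 5.44, 5.53 and 5.51 in WTAL, 4.91, 4.89 and 5.40 in WTCR, and 5.40, 5.58 and 5.60 in *Dgat1*-/-AL. The call ended without WTCR replicate 1 or 2, and 2 WTCR values lay under the background limit. Without the array labelled WTAL replicate 2, *Tlr1* (-0.39, near background) was lower too, making 2 of 10 against 4.13% of all probe sets.

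The genes of both MD accessory proteins were lower with CR. *Ly96*, which encodes MD-2, the lipopolysaccharide-binding partner of TLR4, was 5.95, 5.97 and 6.43 in WTAL, 5.66, 4.71 and 5.18 in WTCR, and 6.52, 6.52 and 5.88 in *Dgat1*-/-AL. It fell by 0.93 ± 0.27 on the log2 scale with CR, a fold of 1.91 (limma adjusted p = 0.116), and was lower by -1.12 ± 0.27 in WTCR than in *Dgat1*-/-AL (limma adjusted p = 0.0627), with no overlap in either case. *Ly86*, which encodes MD-1, the partner of the receptor homologue CD180, was 8.09, 8.47 and 8.63 in WTAL, 7.53, 7.15 and 7.85 in WTCR, and 7.91, 7.84 and 7.36 in *Dgat1*-/-AL. It was lower than in every WTAL array in both other groups, by -0.89 ± 0.22 with CR (limma adjusted p = 0.0724) and by -0.69 ± 0.22 with loss of DGAT1 (limma adjusted p = 0.972). The *Ly96* and *Ly86* calls held in each of the 9 fits that left out 1 array. *Cd180* itself (-0.34 with CR) and *Lbp*, the carrier of lipopolysaccharide in plasma (0.35), were not called over all arrays, both chosen for mention after their values were seen. *Cd180* was called lower with CR (-0.41) without the array labelled WTAL replicate 2.

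Downstream of MyD88, *Irak2*, a kinase-like partner in the receptor complex, was 6.60, 6.54 and 6.55 in WTAL, 6.19, 5.76 and 6.02 in WTCR, and 6.61, 6.72 and 6.59 in *Dgat1*-/-AL. The WTAL and *Dgat1*-/-AL values lay together and all WTCR values lay below them. *Irak2* fell by 0.57 ± 0.10 on the log2 scale with CR, a fold of 1.49 (limma adjusted p = 0.0255), and WTCR lay below *Dgat1*-/-AL by -0.65 ± 0.10 (limma adjusted p = 0.0174). *Traf6*, the ubiquitin ligase on which IRAK kinases act, went the other way, at 7.34, 7.55 and 7.36 in WTAL, 7.79, 7.76 and 7.97 in WTCR, and 7.55, 7.38 and 7.30 in *Dgat1*-/-AL. It rose by 0.42 ± 0.10 with CR (limma adjusted p = 0.0533) and exceeded *Dgat1*-/-AL by 0.43 ± 0.10 (limma adjusted p = 0.0512), and both calls ended without WTCR replicate 3, the second also without *Dgat1*-/-AL replicate 3.

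*Irf5*, a transcription factor activated through MyD88, was lower with CR by -0.59 ± 0.16 (limma adjusted p = 0.0969) and lower than in *Dgat1*-/-AL by -0.71 ± 0.16 (limma adjusted p = 0.0522), with all WTCR values between 6.44 and 6.79 and all other values between 7.03 and 7.63. Without *Dgat1*-/-AL replicate 1 the value in the direct comparison was -0.55. *Tirap*, which bridges TLR2 and TLR4 to MyD88, was lower by -0.48 ± 0.20 with CR (limma adjusted p = 0.310), a call that ended in 6 of 9 fits with 1 array left out, among them the fit without the array labelled WTAL replicate 2 (-0.51). In the direct comparison *Tirap* was lower by -0.70 ± 0.20 (limma adjusted p = 0.121), and that call held in all 9, at -0.48 without *Dgat1*-/-AL replicate 1. The list of adaptors and kinases also holds *Irf3* and *Irf5*. Of its 15 measured genes 3 fell and 1 rose with CR, against 3.81% and 4.25% of all probe sets. Without the array labelled WTAL replicate 2, 2 fell and 1 rose, against 4.13% and 4.03%. In *Dgat1*-/-AL 0 of 15 were called, against 0.465% of all probe sets higher and 0.760% lower.

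No measured gene at the core of the NF-kappaB module was called, in lists too short to read much from that. Over all probe sets the shares called higher and lower were 4.25% and 3.81% with CR and 0.465% and 0.760% in *Dgat1*-/-AL. They were 4.66% and 3.93% in the direct comparison. Of 8 listed IKK and NF-kappaB subunit genes 6 were measured, among them *Rela* and *Rel*. Of these 6, 0 were called in any comparison, with a median of -0.11 with CR. WTCR and WTAL were apart for 3 of the 6, against 19.6% of all probe sets. Of 8 inhibitor genes, *Nfkbia* included, 0 were called in any comparison, with a median of 0.02 with CR.

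**Figure D3:**
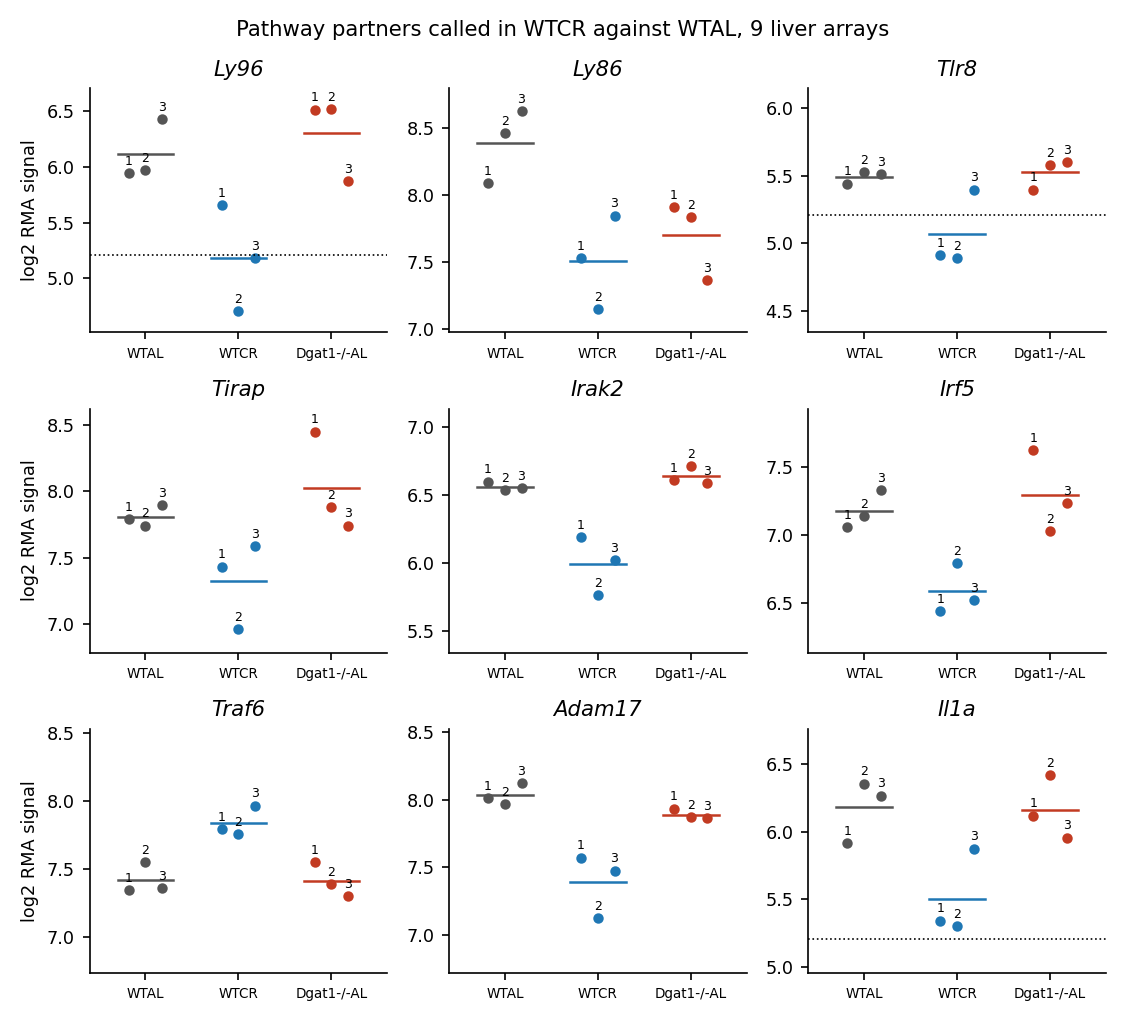
Log2 RMA signal (y axis) in each array, by group (x axis), of 9 pathway genes called between WTCR and WTAL, with replicate numbers, group means as lines and the background limit of 5.21 dotted where it falls in range. WTCR lies apart from WTAL in each panel, above it for *Traf6* and below it for the other 8. The genes drawn were picked from those called between these groups, so this separation follows largely from the choice. *Saa3*, called with overlapping groups, is not drawn. Nor are the called genes *Casp1*, *Gsdmd*, *Birc3* and *Txnip*, the last of which was higher in WTCR.

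Among inflammasome genes, *Gsdmd*, which encodes the pore-forming gasdermin D, fell by 0.39 ± 0.08 with CR (limma adjusted p = 0.0347), from 7.66, 7.58 and 7.71 in WTAL to 7.39, 7.25 and 7.12 in WTCR. *Casp1*, the protease of the inflammasome, was lower by -0.71 ± 0.20 (limma adjusted p = 0.115), but its mean over the 9 arrays, 4.85, lay under the background limit. *Txnip*, a thioredoxin-binding protein that can bind NLRP3 and is also a glucose-responsive gene, rose by 0.70 ± 0.21 (limma adjusted p = 0.136). *Txnip* was 10.64 in WTCR replicate 1 and 9.90 and 9.79 in the other 2 WTCR arrays, against 9.23 to 9.64 in WTAL. The *Gsdmd* call ended without WTAL replicate 3 or WTCR replicate 3, while *Casp1* and *Txnip* held in all 9 fits, *Txnip* at 0.44 without WTCR replicate 1. In the direct comparison *Txnip* was higher in WTCR by 0.55 ± 0.21 (limma adjusted p = 0.241), a call that ended without WTCR replicate 1 or *Dgat1*-/-AL replicate 2 or 3. Of 9 measured inflammasome genes, 5 lay near background, *Nlrp3* and *Casp1* among them.

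In the IL-1 family, *Il1a*, the partner cytokine of *Il1b*, was the single gene of 9 to be called. Over all probe sets 3.81% were called lower with CR and 3.93% in the direct comparison. The *Il1a* signal is given first. It was 5.92, 6.35 and 6.27 in WTAL, 5.34, 5.30 and 5.87 in WTCR, and 6.12, 6.42 and 5.96 in *Dgat1*-/-AL. *Il1a* fell by 0.67 ± 0.19 with CR (limma adjusted p = 0.109) and was lower by -0.66 ± 0.19 than in *Dgat1*-/-AL (limma adjusted p = 0.112). In the TNF group, *Adam17*, the protease that sheds TNF and its receptors from the cell surface, was 8.01, 7.97 and 8.12 in WTAL, 7.57, 7.13 and 7.48 in WTCR, and 7.93, 7.87 and 7.87 in *Dgat1*-/-AL. It fell by 0.64 ± 0.11 with CR (-0.67 without the array labelled WTAL replicate 2, limma adjusted p = 0.0231 over all arrays), the lowest adjusted p of the pathway list in that comparison, and the call held in all 9 fits. WTCR was also below *Dgat1*-/-AL, by -0.50 ± 0.11 (limma adjusted p = 0.0529), a call that ended without WTCR replicate 2. The other 5 measured genes of the TNF group, *Tnf* included, were not called.

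Of 16 NF-kappaB target genes, 6 near background, 2 were lower and 0 higher with CR, against 3.81% and 4.25% of all probe sets. *Birc3*, an inhibitor of apoptosis, was at -0.47 ± 0.12 (limma adjusted p = 0.0904), and lost its call when WTAL replicate 3 or WTCR replicate 2 was left out. *Saa3*, an acute phase protein made largely outside hepatocytes, was at -0.59 ± 0.25 (limma adjusted p = 0.312), a call that held in only 2 of the 9 fits. In the direct comparison *Vcam1*, an endothelial adhesion molecule, was higher in WTCR by 0.46 ± 0.18 (limma adjusted p = 0.241) and *Saa3* lower by -0.63 ± 0.25 (limma adjusted p = 0.258), which held in 5 of the 9 fits. The *Vcam1* call ended without WTCR replicate 3 or *Dgat1*-/-AL replicate 1.

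**Figure D4:**
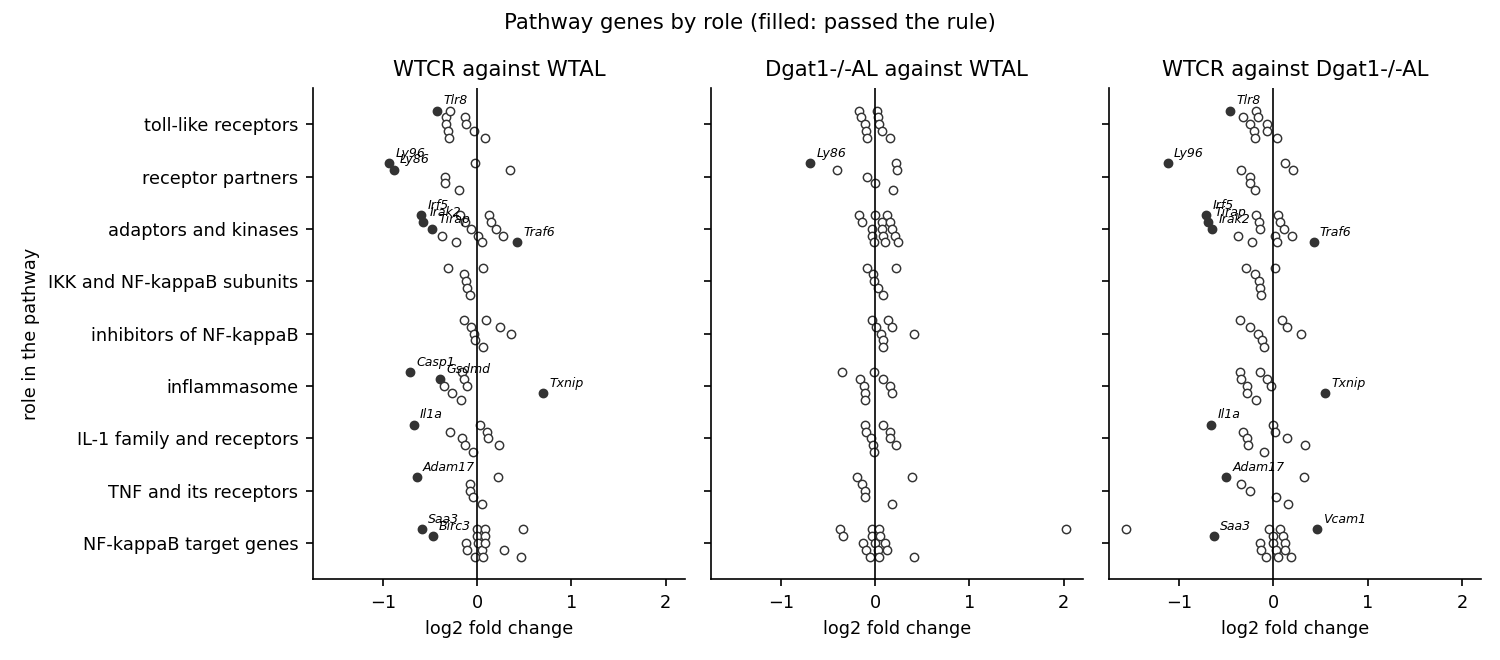
Log2 fold change from limma (x axis) of the 86 measured pathway genes by role (y axis) in the 3 comparisons, with filled points for genes past a fold of 1.3 and an unadjusted p of 0.05. Filled points lie mostly left of 0 with CR (12 of 14), *Ly86* alone is filled for *Dgat1*-/-AL, and the open point at 2.02 in that panel is *Lcn2*.

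*Dgat1*-/-AL replicate 1 set itself apart within the pathway list. It held the single highest value of 29 of the 86 genes (33.7%), among them *Myd88*, *Il1b* and *Il1rn*, against 15.2% of all probe sets. The clearest case was *Lcn2*, the iron-binding protein lipocalin 2, at 12.38, 9.26 and 7.999 in *Dgat1*-/-AL, 7.33 to 8.17 in WTAL and 7.69 to 9.11 in WTCR. *Lcn2* had the largest log2 fold change of the list in *Dgat1*-/-AL compared with WTAL (2.02 ± 0.95, limma adjusted p = 0.972) and was not called. *Lbp* was 11.66 in that array and 9.61 to 10.79 in the other 8, *Tnfrsf1a*, a TNF receptor gene, was 9.74 against 8.20 to 8.81, and *Bcl3*, an atypical IkappaB protein, was 7.70 against 6.23 to 6.70. These genes were chosen after their values were seen and get no test of this pattern. Without this array 0 pathway genes were higher and 3 lower in *Dgat1*-/-AL than in WTAL (against 0.868% and 1.04% of all probe sets), *Cd14* (-0.53) and *Il18bp* (-0.39), an IL-18 binding protein gene, being added to *Ly86*.

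Markers of the cells best known to carry these receptors were also read. Kupffer cell and macrophage markers were all measured above background (16 of 16), and 7 were lower and 1 higher with CR, against 3.81% and 4.25% of all probe sets. The log2 fold changes were -1.13 for *Adgre1*, -0.92 for *Mpeg1*, -0.87 for *Aif1*, -0.76 for *Lyz2* and *Clec4f*, -0.53 for *C1qa* and -0.52 for *Fcgr1*, with *Cd163* higher (0.80). In *Dgat1*-/-AL 5 of the 16 were lower, against 0.760% of all probe sets, *Adgre1* (-0.85), *C1qa* (-0.61), *C1qb* (-0.50), *Clec4f* (-0.50) and *Fcgr1* (-0.39). Without the array labelled WTAL replicate 2, 6 were lower with CR (against 4.13% of all probe sets), *C1qa* no longer called. In *Dgat1*-/-AL 2 were then lower (against 1.28%), *Adgre1* (-0.74), *C1qb* (-0.42) and *Fcgr1* (-0.41) no longer called. Without *Dgat1*-/-AL replicate 1, 7 were lower in *Dgat1*-/-AL (against 1.04%), with *Cd68* (-0.66) and *C1qc* (-0.79) added. *Cd68* (-0.15 and -0.36) and *Cd5l* (-0.34 and -0.49) were not called in either. Nor were *Vsig4* (-0.07 and 0.00) and *Marco* (-0.03 and -0.75), both chosen for mention after their values were seen. Values were below 0 for 15 of 16 markers with CR and for 13 of 16 in *Dgat1*-/-AL. In *Dgat1*-/-AL *Csf1r* (0.31) and *Cd163* (0.43) lay above 0 and were not called. The mean log2 signal of this list was 8.06, 8.63 and 8.61 in WTAL, 7.69 to 8.32 in WTCR and 7.86 to 8.25 in *Dgat1*-/-AL, so that WTAL replicate 1 lay within the range of the other groups. That array also had the lowest *Myd88* and *Nfkbia* values. In whole tissue, fewer cells of a type and less RNA per cell cannot be told apart, and the part of the macrophage markers in the pathway values was not tested.

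Of the neutrophil markers 7 of 11 lay near background and 0 were called in any comparison over all arrays, with list means of 4.48 to 4.71 over all arrays. *S100a8* was near background at 5.01 and *S100a9* was at 5.66. Of the monocyte markers 5 of 6 lay near background, *Itgam* and *Ccr2* included, and 1 (*Ccr2*) was lower with CR. Of the dendritic cell markers 4 of 6 lay near background and 0 were called. Of the T and NK cell markers 6 of 8 lay near background, and 2 of these 6 (*Cd3g* and *Nkg7*) were lower with CR. The list means were 4.68 to 4.70 in WTCR, 4.90 to 5.03 in WTAL and 4.80 to 4.93 in *Dgat1*-/-AL. *Lrat*, *Reln* and *Hgf*, of 6 stellate cell markers, and *Clec4g*, of 7 sinusoidal endothelial markers, were also lower with CR, while in *Dgat1*-/-AL *Stab2* was higher (0.65) and *Clec4g* (-0.57) and *Lyve1* (-0.64) lower than in WTAL. Without the array labelled WTAL replicate 2 *Ccr2* (-0.38) and *Nkg7* (-0.43), both near background, were also lower in *Dgat1*-/-AL. The hepatocyte list had 0 of 5 genes called in any comparison. Over all probe sets 3.81% were called lower and 4.25% higher with CR, and 0.760% and 0.465% in *Dgat1*-/-AL.

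Markers also differed between WTCR and *Dgat1*-/-AL. Of 7 sinusoidal endothelial markers, 4 were lower in WTCR, *Stab2* (-1.06), *Kdr* (-0.81), *Fcgr2b* (-0.55) and *Clec4g* (-0.44), and *Lyve1* was higher (0.75), against 3.93% and 4.66% of all probe sets. Of 16 macrophage markers, 3 were lower, *Csf1r* (-0.85), *Mpeg1* (-0.65) and *Aif1* (-0.51). The stellate cell markers *Reln* (-0.74) and *Lrat* (-0.65) were lower and *Dcn* (0.40) higher. The T and NK cell markers *Nkg7* (-0.60) and *Cd3g* (-0.55), both near background, were lower. *Stab2*, *Kdr* and *Csf1r* had their highest value of all arrays in *Dgat1*-/-AL replicate 1, and no endothelial or macrophage call was lost without it. Without *Dgat1*-/-AL replicate 1 *Hgf* (-0.69) and the neutrophil marker *Ly6g* (-0.39, near background) were lower too. The part of these markers in the pathway values of the direct comparison was not tested.

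**Figure D5:**
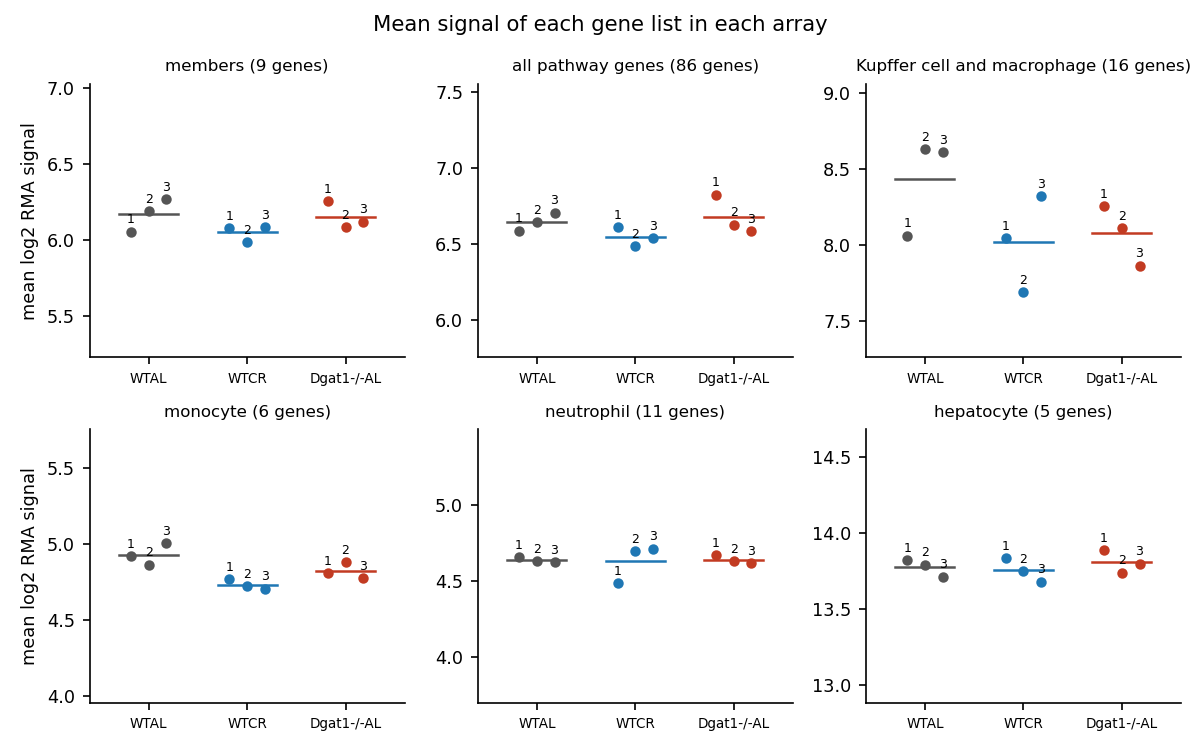
Mean log2 RMA signal of 6 gene lists (y axis) in each array, by group (x axis), with replicate numbers and group means as lines. The 9 measured genes range from 5.99 to 6.27, macrophage markers spread from 7.69 to 8.63, and hepatocyte markers stay between 13.68 and 13.89.

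The highest Pearson correlation over the 9 arrays between 2 of the 8 members above background was that of *Myd88* and *Il1b* (0.70), followed by *Tlr2* and *Myd88* (0.67), and the lowest was that of *Tlr4* and *Nfkbia* (-0.65). The points share arrays and groups, and *Dgat1*-/-AL replicate 1 is the highest in both *Myd88* and *Il1b*, so these are descriptions. Averaged over the 8 members, each centred on its own mean, the difference was largest in WTAL replicate 3 (0.16) and *Dgat1*-/-AL replicate 1 (0.15) and smallest in WTCR replicate 2 (-0.15). The 5 genes outside the pathway list that followed this average most closely over the 9 arrays were *Aldh1b1* (r = 0.96), *Klk1b27* (0.94, near background), *Ets2* (0.94), *Slc25a44* (0.93) and *Rhoc* (0.92).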

How the data were processed

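Liver RNA of 9 mice was hybridised to Affymetrix Mouse Gene 1.0 ST arrays. The deposited log2 signals were made by the authors with RMA (version not given in the sources used here), a method of background correction, quantile normalization and summary over the probes of a set. No spot-level data were used, and 3 arrays per group limit the precision of every value. Groups and replicate numbers came from the labels. Symbols came from the platform annotation on GEO: 21780 probe sets carried 1 symbol, 1605 several and 5430 none that was listed.

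From these values limma 3.58.1 (R 4.3.3) fitted 1 mean per group and 1 spread over 9 arrays, for all 28815 probe sets without a filter. The study's rule was kept, so a gene was called when its fold exceeded 1.3 with unadjusted p below 0.05. Adjusted p is Benjamini-Hochberg over all probe sets. Each p-value sets a difference between group means against the spread between these mice, as moderated by limma. A gene with several probe sets was taken from the brightest. The procedure was tested on simulated data. Members and lists were chosen with earlier results of these data known. Named were all members, called genes of the pathway and marker lists, 8 set markers and the 5 genes most like the members. Exceptions are stated.

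Residuals of same-numbered arrays correlated at 0.48, 0.25 and 0.21 between WTCR and *Dgat1*-/-AL, and those of different-numbered arrays at -0.37 to 0.18. Same-numbered arrays correlated at -0.23, 0.05 and -0.08 between WTCR and WTAL. Between *Dgat1*-/-AL and WTAL they correlated at -0.33, -0.09 and -0.23, while different-numbered arrays reached 0.31. Residuals within a group depend on each other, so these values do not establish a pairing, and the labels give none.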

Additional observations from a re-analysis of the deposited data

How the results depend on the processing

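Across the alternatives, counts over the members stayed at 0 or 1 called in each direction. With arrays centred on their median, or with an intensity trend, 1 member (*Cd14*) and 2 pathway genes were lower in *Dgat1*-/-AL than in WTAL. With only the 2 groups compared in the fit, 1 pathway gene was higher in WTCR than in *Dgat1*-/-AL, and at a fold over 1.5 there were 0, while WTCR against WTAL then gave 1 higher and 7 lower. The filter at the background limit leaves *Nlrp3* and *Casp1* without a value. With the limit at the median, at the 99th percentile or from vomeronasal and trace amine receptors alone, 0, 5 and 0 members lay near background. Leaving out 1 array at a time, members ranged from 0 to 1 for higher and for lower in WTCR against WTAL, from 0 to 1 for lower in *Dgat1*-/-AL against WTAL and from 0 to 1 for lower in WTCR against *Dgat1*-/-AL. Pathway genes ranged from 0 to 1 higher and 1 to 3 lower in *Dgat1*-/-AL against WTAL, and from 1 to 5 higher and 5 to 11 lower in WTCR against *Dgat1*-/-AL. Log2 fold changes that crossed 0 were those of *Myd88* (-0.428 to 0.055) in WTCR against WTAL, of *Tlr4* (-0.352 to 0.049), *Myd88* (-0.054 to 0.43), *Nfkbia* (-0.007 to 0.15) and *Nlrp3* (-0.047 to 0.042) in *Dgat1*-/-AL against WTAL, and of *Tlr4* (-0.382 to 0.019) and *Tnf* (-0.017 to 0.079) in the direct comparison. The causes were not tested.

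With the replicate block over 9 arrays, pathway genes were 2 higher and 12 lower in WTCR against WTAL and 3 higher and 8 lower in WTCR against *Dgat1*-/-AL, and 0 members were called. In that block fit the limma adjusted p of *Irak2* and *Gsdmd* with CR went to 0.0632 and 0.0779, while that of *Adam17* was 0.0449. A block over the WTCR and *Dgat1*-/-AL arrays alone, chosen after seeing the data, gave 3 higher, 9 lower and 0 members.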
